A study of Rattus norvegicus with 10 samples.

Results

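Serotonin receptors were described in RNA from the arcuate nucleus (ARC) of the hypothalamus of Wistar rat dams at parturition. The members were chosen by gene symbol from a list of 8 receptor genes, and 6 of them were found among the 12828 genes of the table: *Htr2c*, *Htr2a*, *Htr1b*, *Htr5a*, *Htr1a* and *Htr4*. *Htr1d* and *Htr7* were not analysed here. The 10 dams had eaten, during pregnancy, a diet with 5X the recommended folate as folic acid (5X-FA, n = 5) or as methylfolate (5X-MTHF, n = 5). All dams were of the same strain, sampled at the same time and on a high folate intake, so that no group with the recommended intake stands beside them here. The ARC was cut out by hand on dry ice, and poly-A RNA of the piece was sequenced, so each value is a mixture of the neurons, glia and vessels in it. A low level from few expressing cells cannot be told apart from a low level in each cell.

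The study set out to compare the diets. That comparison was not made here, because the values of single dams could not be tied to a diet by name. The value used is the average log2 CPM of each gene over the libraries, which its heading and total mark as read counts scaled to the size of each library (CPM) on a logarithm to base 2. How the average was formed is not stated, which matters most for genes with few reads. It is the authors' summary value for each gene, with no standard deviation, and it pools the diets. The spread between dams and the read depth behind a value cannot be read from it. Columns with values of single samples exist but were left out, so no order of levels was set against the spread between dams.

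Serotonin (5-hydroxytryptamine) is made by neurons of the raphe nuclei in the brainstem, whose fibres reach the hypothalamus. Most of its receptors are G protein-coupled and fall into families by the G protein they use. *Htr2a* and *Htr2c* act through Gq and phospholipase C. *Htr1a*, *Htr1b*, *Htr1d* and *Htr5a* act through Gi/o and lower cyclic AMP. *Htr4* and *Htr7* act through Gs and raise it. In the ARC serotonin is known for reducing food intake, in part by exciting POMC neurons through *Htr2c* and inhibiting AgRP neurons through *Htr1b*.

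Of the 6 receptors, *Htr2c* took by far the most reads, with an average log2 CPM of 7.58, which is 191 CPM. It stood at percentile 92.5 of all genes by this level, rank 962 of 12828. All genes here are those left after the authors' filter on low values, so genes removed by it count in no percentile or median. *Htr2a*, the other Gq-coupled receptor, had an average log2 CPM of 5.16 (35.9 CPM, percentile 54.5). The other 4 receptors lay below the median of all genes, an average log2 CPM of 4.94, and 3 of them also below the lower quartile of 3.65. The Gi/o-coupled *Htr1b*, which sits on nerve terminals and limits transmitter release, had 3.98 (15.7 CPM, percentile 30.6). For *Htr5a* the average log2 CPM was 3.41 (10.7 CPM, percentile 21.5), and for *Htr1a*, the autoreceptor of serotonin neurons that also sits on their target cells, it was 2.66 (6.30 CPM, percentile 11.9). *Htr4* had the lowest value, 2.36 (5.15 CPM, percentile 9.49).

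Thus the Gq-coupled pair, mainly *Htr2c*, took most of the reads of the 6 receptors found. Summed over the 6 receptors the level was 265 CPM, or 0.0264% of the CPM of the table. *Htr2c* made up 72.1% of that sum and *Htr2a* 13.6%, so the pair held 85.7%. The Gi/o-coupled *Htr1b*, *Htr5a* and *Htr1a* made up 5.95%, 4.03% and 2.38%, and the Gs-coupled *Htr4* 1.94%. From the highest to the lowest receptor the CPM differed 37.1-fold. These are shares of reads and not of transcripts, since a longer transcript yields more reads.

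**Figure D1:**
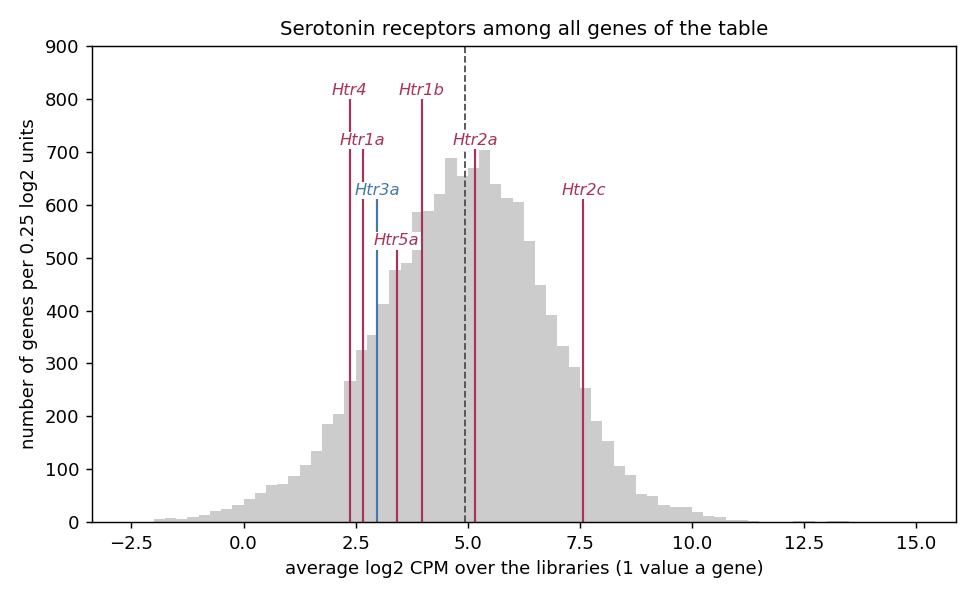
Histogram of the average log2 CPM of all 12828 genes (grey, genes per 0.25 log2 units), with a vertical line at each serotonin receptor found (red for the 6 members, blue for *Htr3a*) and a dashed line at the median of all genes, 4.94. The heights of the lines carry no value. *Htr2c* at 7.58 lies in the upper tail, *Htr2a* at 5.16 is near the middle, and the others lie between 2.36 and 3.98.

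A comparison per length was possible for *Htr1a* and *Htr1b*, whose coding regions are known to lie in a single exon. Their gene models in Rnor_6.0 span 1.269 and 1.539 kb, and these spans were taken as the transcript lengths. Per kb, *Htr1b* had 10.2 CPM and *Htr1a* 4.96 CPM, a ratio of 2.06, against a ratio of 2.50 without the length. Reads from any part of a transcript outside its gene model are not counted, so these levels and ratios depend on the annotation. Whether the models cover the whole transcripts was not tested.

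The exon lengths of the other receptors were not at hand, so the length at which each would match the intronless pair per kb was computed instead. *Htr2c* would equal *Htr1b* in CPM per kb at a transcript of 18.7 kb and *Htr1a* at 38.5 kb. For *Htr2a* these lengths were 3.51 and 7.23 kb. For *Htr5a* they were 1.04 and 2.15 kb, and for *Htr4* 0.503 and 1.04 kb. A transcript shorter than the stated length means a higher level per kb than the intronless gene, and a longer one a lower level. The place of *Htr2c* above the intronless pair therefore holds for any transcript up to 18.7 kb, whereas the order of *Htr2a*, *Htr5a* and *Htr4* relative to the pair depends on lengths that were not used here.

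The receptor genes differ widely in size and lie on separate chromosomes of Rnor_6.0. *Htr2c* is on chromosome X from 118084890 to 118318039, a span of 233 kb. *Htr4* covers 165 kb of chromosome 18 from 57654290 to 57819698, and *Htr2a* covers 69.4 kb of chromosome 15 from 56666012 to 56735382. *Htr5a* lies on chromosome 4 from 199916 to 209599. The intronless genes are *Htr1a*, on chromosome 2 from 36246628 to 36247896, and *Htr1b*, on chromosome 8 from 89129453 to 89130991. All 6 are annotated as protein-coding in the table. In the RefSeq annotation of GRCr8, a later build, 5 microRNA hairpins (*Mir3552*, *Mir764*, *Mir1912*, *Mir1298* and *Mir448*) lie within *Htr2c* on its strand, and 0 lie within the other 5 receptors. Poly-A libraries do not measure mature microRNAs.

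Folate supplies methyl groups that can end up on the C of CG dinucleotides in DNA, so the CG content upstream of the receptors is shown. No methylation was measured in these samples. A RefSeq window of GRCr8 upstream of the annotated start was found for 3 of the 6 receptors. The 250 bases before the start are given 5′ to 3′ on the strand of the gene, with every CG in capitals. They are chrX:115452940-115453189 (plus strand) for *Htr2c*, chr8:91414816-91415065 (minus strand) for *Htr1b* and chr4:8188486-8188735 (minus strand) for *Htr5a*.
Htr2c: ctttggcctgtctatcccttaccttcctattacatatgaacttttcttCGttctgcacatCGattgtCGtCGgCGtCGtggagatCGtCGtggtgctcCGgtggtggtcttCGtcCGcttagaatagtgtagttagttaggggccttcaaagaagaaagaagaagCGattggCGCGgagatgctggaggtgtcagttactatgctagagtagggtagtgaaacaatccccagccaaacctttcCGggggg
Htr1b: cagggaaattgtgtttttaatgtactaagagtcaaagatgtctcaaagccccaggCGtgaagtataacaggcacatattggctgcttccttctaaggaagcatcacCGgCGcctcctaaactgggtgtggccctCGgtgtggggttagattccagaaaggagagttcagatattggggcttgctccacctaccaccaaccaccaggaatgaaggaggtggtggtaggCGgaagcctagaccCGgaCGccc
Htr5a: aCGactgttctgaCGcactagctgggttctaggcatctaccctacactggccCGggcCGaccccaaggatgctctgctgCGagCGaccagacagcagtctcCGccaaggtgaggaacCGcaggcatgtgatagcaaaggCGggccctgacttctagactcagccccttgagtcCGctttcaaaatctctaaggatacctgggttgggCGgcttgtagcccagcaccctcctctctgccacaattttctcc

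The *Htr2c* window held 15 CG, against 11 for *Htr5a* and 7 for *Htr1b*. The median over the 8831 genes of the table matched to a single window was 17, so all of these windows were below it. At least as many CG as in the respective window were found upstream of 59.6% of genes for *Htr2c*, 74.7% for *Htr5a* and 86.2% for *Htr1b*. The GC content was 50.4% for *Htr2c*, 52.4% for *Htr1b* and 58.4% for *Htr5a*, with a median of 60.8% over all windows. Across genes, which are not independent replicates, the 4121 with more than 17 CG had a median average log2 CPM of 5.46 and the 4710 with up to 17 had 4.75. The level of *Htr2c* was above both medians although its window held fewer CG than the median, and *Htr1b* and *Htr5a* were below both.

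Of 6 further serotonin receptor genes, 1 was found. *Htr3a*, a subunit of the serotonin-gated cation channel and so the only receptor here that is not G protein-coupled, had an average log2 CPM of 2.99 (7.92 CPM), a level between those of *Htr1a* and *Htr5a*. It lies on chromosome 8 of Rnor_6.0 from 53211438 to 53223804. *Htr1f*, *Htr2b*, *Htr3b*, *Htr5b* and *Htr6* were not analysed here.

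Of 10 genes of serotonin synthesis, storage, uptake and breakdown, 5 were found. The median average log2 CPM of the genes found was 5.19 against 4.94 for all genes. It does not cover the genes of the list that were not analysed. The enzymes that break down monoamines were the highest, *Maob* at 6.69 and *Maoa* at 6.66. The vesicular monoamine transporter *Slc18a2* had 5.19 and *Ddc*, which makes serotonin and also dopamine from their precursors, had 5.09. *Gch1*, which makes the cofactor of tryptophan and tyrosine hydroxylase, had 1.99. *Ddc*, *Slc18a2* and *Gch1* are shared with dopamine neurons, and the dopamine markers *Th* and *Slc6a3* had average log2 CPM of 5.20 and 5.48. The genes by which serotonin neurons are recognised, *Tph2*, *Slc6a4*, *Fev* and *Gata3*, were not analysed here, nor was *Tph1*.

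The genes that carry the receptor signal are given as read levels, not per length, and their list medians were above that of the 6 receptors, 3.69. Of 12 genes of the Gq arm 10 were found, 8 of them above the median of all genes and 2 below, with a median average log2 CPM of 6.60. The highest were the IP3 receptor *Itpr1* (8.09), the protein kinase C gene *Prkcb* (7.40) and the phospholipase *Plcb1* (7.27). All 9 genes of the Gi/o arm were found, 7 above and 2 below, with a median of 6.02. They were led by the G protein subunits *Gnao1* (8.42) and *Gnai2* (8.16) and by *Rgs4* (7.61), which speeds the switching off of G proteins. In the Gs arm all 11 genes were found, in 12 rows, since *Gnas* has a pair of rows at 10.09 and 6.69. All 12 rows were above the median of all genes, with a median of 7.10, and *Prkacb* (7.86) and the adenylyl cyclase *Adcy5* (7.64) followed *Gnas*. *Ppp1r1b* (7.07) of this list is also among the striatal markers below.

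All 10 genes of receptor partners and RNA editing were found, 7 above and 3 below the median of all genes, with a median average log2 CPM of 6.69. The highest was *Dlg4* at 8.87, a scaffold of the postsynaptic density that binds *Htr2a* and *Htr2c* proteins. The editing enzymes *Adarb1* and *Adar*, which recode *Htr2c* mRNA, had 7.71 and 7.64, beside 7.58 for *Htr2c* itself, none of them corrected for length. Whether *Htr2c* transcripts were edited cannot be read from gene levels. Their relative *Adarb2*, for which no editing activity is known, had 3.87.

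**Figure D2:**
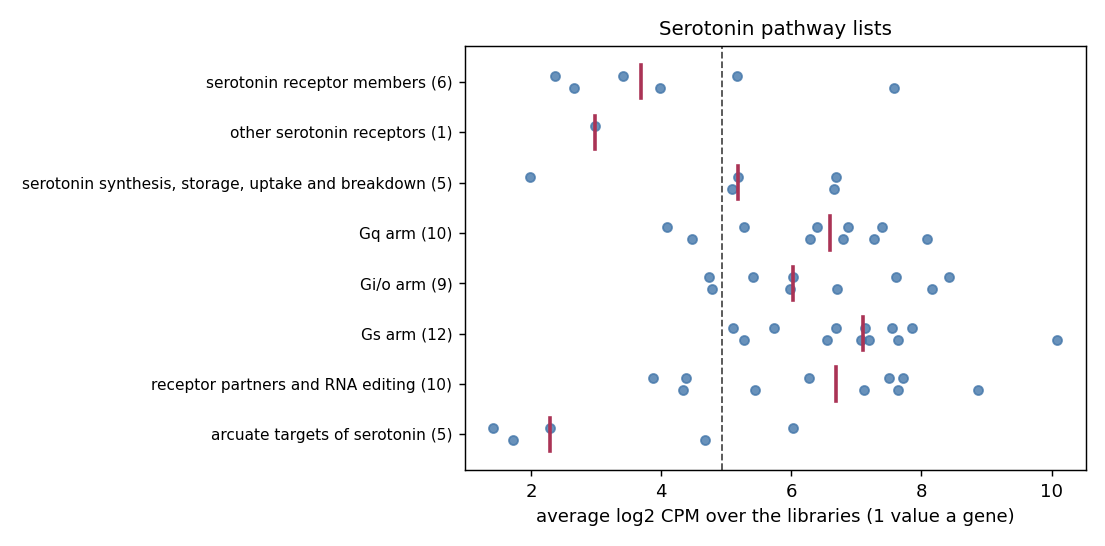
Average log2 CPM of each gene found in the serotonin receptor and pathway lists (blue points, 1 a row of the table, number of rows in brackets), with the median of each list (red bar) and the median of all genes, 4.94 (dashed line). The small vertical offset of points only separates them. The Gs, Gi/o and Gq arms have medians of 7.10, 6.02 and 6.60, above the 3.69 of the 6 receptors.

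Among 7 genes of ARC neurons on which serotonin acts, 5 were found, with a median average log2 CPM of 2.29. *Cartpt*, a satiety peptide, had 6.02, and *Pomc*, the precursor of the satiety peptide alpha-MSH, had 4.67. The melanocortin receptors *Mc4r* and *Mc3r* had 2.29 and 1.72, and *Agrp*, the hunger peptide that opposes alpha-MSH, had 1.42. *Npy* and *Lepr* were not analysed here. Not corrected for length, *Htr2c* took more reads (191 CPM) than *Pomc* (25.4 CPM) or *Agrp* (2.67 CPM).

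Markers of the ARC were found, beside markers of neighbouring and more distant regions. Of 9 ARC genes 8 were found, between 0.08 (*Kiss1*) and 6.02 (*Cartpt*), with a summed level of 183 CPM. Most of that sum came from *Cartpt* (65.0 CPM), *Slc6a3* (44.5 CPM), *Th* (36.8 CPM) and *Pomc* (25.4 CPM), of which *Th* and *Slc6a3* mark dopamine neurons of any region. The other 4, *Agrp*, *Kiss1*, *Ghrh* and *Tbx3*, summed to 11.2 CPM. Markers of other hypothalamic nuclei summed to 1280 CPM over 8 of 8 genes, with *Pmch*, of the lateral hypothalamus, at 603 CPM. Striatal markers summed to 344 CPM over 6 of 6 genes, and markers of the cerebral cortex and hippocampus to 164 CPM over 4 of 6, of which *Slc17a7* gave 144 CPM. Thalamic markers summed to 343 CPM over 4 of 5, and *Slc17a6*, which hypothalamic neurons also express, gave 272 CPM of these. Cortical neurons are a known site of *Htr2a*, and striatal neurons of *Htr2c*, *Htr1b* and *Htr4*. The part of these regions in the receptor and pathway levels was not tested.

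*Htr2c* is also abundant in the choroid plexus, a secretory tissue that projects into the ventricles. Of 7 choroid plexus markers 5 were found, all below the median of all genes, and they summed to 25.4 CPM. The most abundant was *Ttr*, the main secreted protein of that epithelium, at 8.33 CPM, against 191 CPM for *Htr2c*, neither corrected for length. The part of the choroid plexus in the *Htr2c* level was not tested. *Folr1*, the folate receptor of the choroid plexus, had 1.78 CPM. Of 5 markers of serotonin neurons 1 was found, *Slc17a8*, which other neurons express too, at 6.25 CPM. In the pituitary list, *Pomc*, which the ARC shares, and *Cga* were found of 7 symbols, at 25.4 and 31.0 CPM. Glial markers were all found, summing to 2798 CPM over 5 astrocyte genes, 12954 CPM over 5 oligodendrocyte genes and 210 CPM over 5 microglial genes. Vessel markers summed to 161 CPM over 3 of 4 genes.

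**Figure D3:**
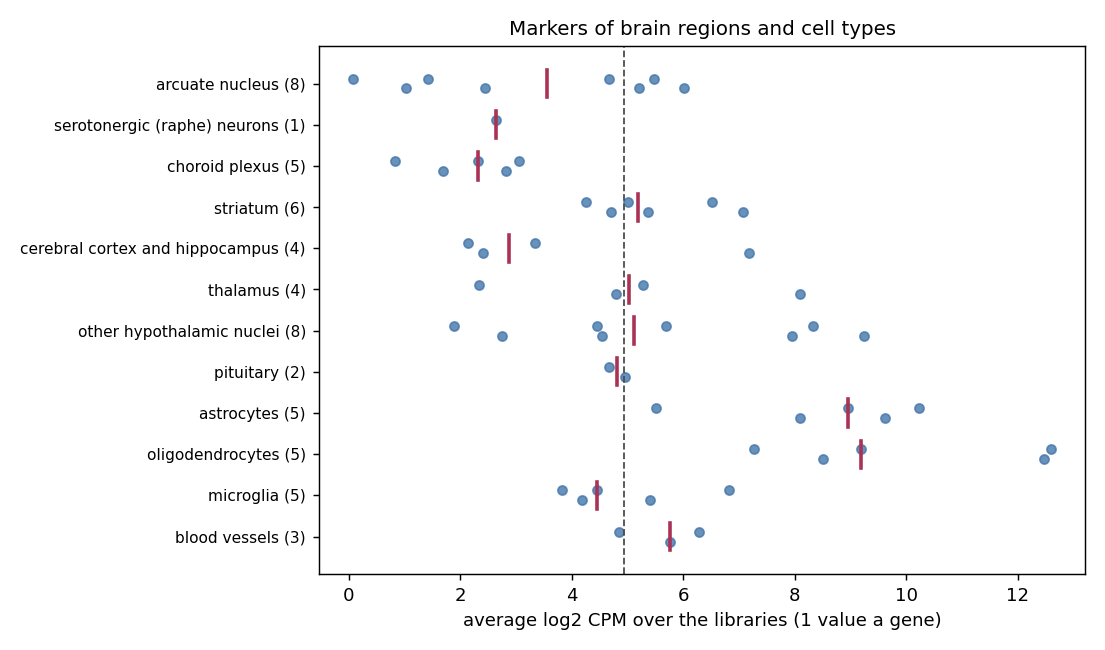
Average log2 CPM of the region and cell type markers found in the table (blue points, number of rows in brackets), with the median of each list (red bar) and the median of all genes, 4.94 (dashed line). The vertical offset of points only separates them. Choroid plexus markers all lie at or below 3.06, and oligodendrocyte markers reach 12.59.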

How the data were processed

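RNA was taken from the ARC of 10 dams, 5 per diet. As the methods and processing notes state, the authors trimmed the reads with Trim Galore 0.5.0, aligned them to Rnor_6.0 with STAR and counted them per Ensembl gene with HTSeq, on poly-A libraries. The authors deposited 1 table of a comparison of the diets, from which only the average log2 CPM of each gene was used. The tool that made that column is not given in the sources used here. The columns of the table are not those of DESeq2, which the authors name in the methods, and whether a prior count was added, which would raise low values, is not known. Its antilogarithms to base 2 sum to 1002152 over all rows, which is close to what CPM should give, so base 2 was used. The values were not divided by length, and the rows had been filtered on low values by the authors.

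The table also holds the statistics of the authors' own comparison (fold change, F, p-value and FDR), none of which was used. Another 10 columns, with values of single samples, are headed 1 to 10. No label of a sample carries such a name, so these were left out of every step. Grouping by diet from the labels therefore served only to describe the dams, and no test was run. The limma fit, the exact permutation tests and the search for genes with a pattern like *Htr2c*, planned for values per dam, were not run. Depth per library is unknown from the value used, and no interval was given.

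Members, pathway lists and markers were written by hand with earlier results of these data known. Named genes are all members, the other receptors found, the serotonin synthesis list, the 3 highest genes of each other function list and, chosen after their values were seen, *Adarb2*, *Mc3r*, *Agrp* and the markers named. Percentiles are the percent of rows with a lower value. Lists were matched by symbol, and repeated symbols were kept as separate rows. Upstream windows are from RefSeq on GRCr8, matched by symbol, and only symbols with a single row and a single window were used. The microRNA hairpins, on the same build, were found by position within the span of each receptor found, with or without a window. The percentile calculation was tested on simulated data. Python 3.11.15, numpy 2.4.6, pandas 2.3.3 and matplotlib 3.10.9 were used.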

Additional observations from a re-analysis of the deposited data

How the results depend on the processing

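Each receptor was placed again among protein-coding genes only (12383) and among the 12462 genes whose level was 1 or more on the log2 CPM scale. *Htr2c* went from percentile 92.5 to 92.3 and 92.3. The others moved down by more, and all moved because genes with lower values had been left out. The percentile among protein-coding genes and then among the better expressed ones was 53.3 and 53.2 for *Htr2a*, 28.8 and 28.5 for *Htr1b*, 19.7 and 19.2 for *Htr5a*, 10.2 and 9.35 for *Htr1a* and 7.81 and 6.84 for *Htr4*. Neither choice removes a gene of the function lists, so their medians could not change. Of the marker lists, the median average log2 CPM of the ARC went from 3.56 to 4.67 and that of the choroid plexus from 2.32 to 2.57 without the genes under 1. The median of the cortex and hippocampus went from 2.87 to 3.34 among protein-coding genes.

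No paired analysis was possible because the columns with values per dam carry no label of a diet or replicate. Those columns were left out of every step, so other pseudocounts, filters, fits and the leaving out of single dams were not run. Coding lengths were not at hand, so the gene span was used, for *Htr1a* and *Htr1b* only. Without values per dam tied to a diet, neither a diet effect nor its absence can be stated here for any receptor.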
